A study of Mus musculus with 12 samples.

Results

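The response of the MPI-2 macrophage line to lipopolysaccharide (LPS) was measured in newly made RNA, with 3 LPS arrays set against 3 mock arrays, which are 6 of the 12 arrays of the series. All 19937 genes with a probe set that names 1 gene were tested, so the set tested was not chosen by response. MPI-2 is 1 line of GM-CSF-induced macrophages derived from C57BL/6 fetal liver, and both of its groups grew in RPMI with 10% fetal calf serum and granulocyte-macrophage colony-stimulating factor (GM-CSF). The LPS group received R-LPS, the rough form of LPS, at a concentration that the labels write as 0.1 mg/ml, and the mock group received none. Newly made RNA was labelled with 4-thiouridine, a uridine analogue, for 60 min, which in the LPS group began 30 min after LPS and therefore ended at 90 min. Mock and LPS arrays of bone marrow-derived macrophages (BMM), 3 of each, came from C57BL/6 marrow cells differentiated ex vivo with macrophage colony-stimulating factor (M-CSF) in DMEM with 10% fetal calf serum, and they are used to say where the MPI-2 response differed. The arrays of a group are titled as biological replicates. For MPI-2 they are cultures of 1 line. The p-values reflect only how the 12 arrays scatter, which may include technical scatter. Each gene has 1 spread shared by the 4 groups, so p-values for MPI-2 also carry the scatter of BMM arrays.

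LPS, a component of the outer membrane of Gram-negative bacteria, is handed by CD14 to the receptor complex of Toll-like receptor 4 and MD-2. One arm of the signal runs through MyD88 to NF-kB and MAP kinases and switches on cytokine and chemokine genes, and the other runs through TRIF to interferon regulatory factors, interferon beta and, through secreted interferon, a broad set of antiviral genes. GM-CSF supports macrophages of the lung, and lines of this kind serve as a model of alveolar macrophages.

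Values are log2 levels of newly made RNA as deposited, and a change is the LPS mean minus the mock mean with its standard error (SE). The SE uses the shared spread, so it is the same for the changes of a gene in MPI-2 and in BMM. Genes passed the test at an adjusted p under 0.05 in limma, with Benjamini-Hochberg adjustment over all genes, and every adjusted p below is from that fit. A level of 3.37, the 95th percentile of 1027 olfactory receptor genes, is called background, and 12030 genes (60.3%) had a mean above it over the 12 arrays. A change that starts or ends under that level understates the change in RNA. Arrays of 1 MPI-2 group correlated over all probe sets at r of 0.986 to 0.990. The median SD of a gene was 0.12 in the mock group and 0.109 in the LPS group. Of 12 macrophage markers 4 rose and 3 fell, with changes from -1.29 to 2.64, and none had means under background in both groups. Lyz2 stood at 10.79, 10.62 and 10.62 in mock and 10.75, 10.76 and 10.81 in LPS arrays. Of 16 neutrophil markers 3 rose, 1 fell and 10 had means under background in both groups, Ly6g, Mpo and Ltf among these. Their summed level was 49.1 to 50.5 in mock and 52.7 to 53.7 in LPS arrays. In such bulk samples, fewer cells making a transcript and less of it per cell cannot be told apart.

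LPS raised newly made RNA of 1031 genes in MPI-2 and lowered that of 1910, which are 5.17% and 9.58% of the genes tested. Increases were fewer and reached further. Of the genes that rose, 368 changed at least 2-fold, 88 at least 4-fold, 34 at least 8-fold, 19 at least 16-fold and 7 at least 32-fold. Of those that fell, 455 changed at least 2-fold, 33 at least 4-fold, 2 at least 8-fold and none at least 16-fold. The median called increase was 0.831 and the median called decrease -0.758 on the log2 scale, while the median change over all genes was 0.02. The 3 LPS arrays lay wholly apart from the 3 mock arrays for 2934 of the 2941 called genes, and over all genes they lay wholly above for 16.6% and wholly below for 20.5%. Of the 1031 genes that rose, 117 had a mock mean under background, among them 7 of the 19 that rose at least 16-fold.

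**Figure D1:**
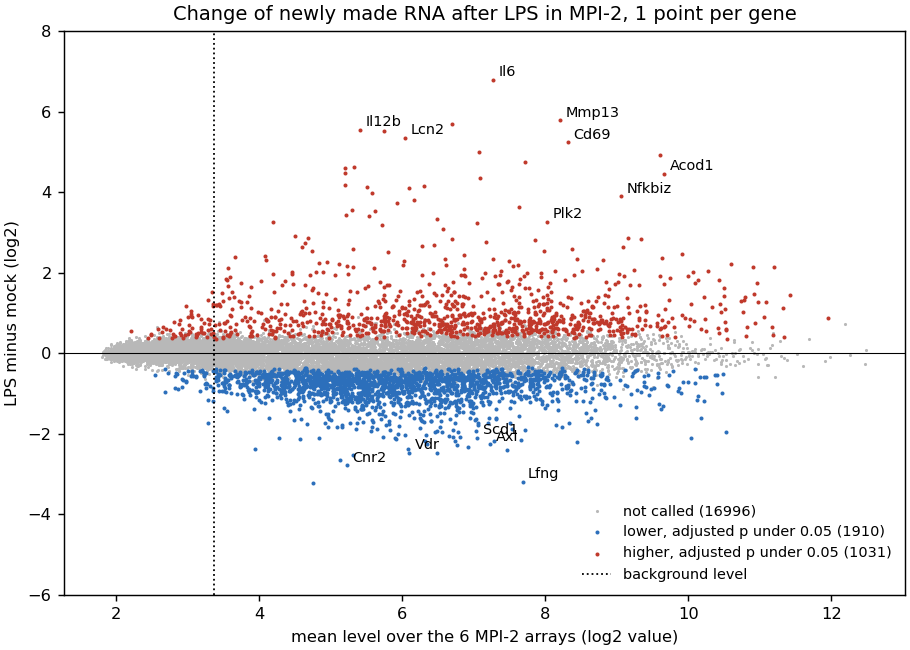
Change of newly made RNA after LPS in MPI-2 (vertical axis, log2 of LPS over mock) against the mean level over the 6 MPI-2 arrays (horizontal axis, log2 value), with 1 point per gene. Red points are the 1031 genes that rose, blue points the 1910 that fell and grey points the genes that did not pass, and the dotted line is the background level. Increases reach 6.79 for Il6, and decreases reach -3.20 for Lfng, apart from 1 predicted gene.

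The 30 genes that rose most are ranked here without microRNA and predicted genes. Of these, 5 had a promoter stretch that fits the consensus binding sequence of NF-kB, the factor at the end of the MyD88 arm. The 5 promoters are shown. The promoter sequences are those of RefSeq on GRCm38.p6, and the window searched was the 250 bases before the start of each gene, on both strands. Capitals mark each match to the NF-kB consensus, and 30 bases are given on each side. The stretches lie at chr5:30013040-30013109 on the plus strand for Il6, chr5:92348953-92349078 on the minus strand for Cxcl10, chr17:37483661-37483764 on the minus strand for H2-M2, chr1:83116656-83116725 on the plus strand for Ccl20 and chr9:111057535-111057604 on the minus strand for Ccrl2.
Il6: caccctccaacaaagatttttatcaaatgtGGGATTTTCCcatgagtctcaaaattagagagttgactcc
Cxcl10: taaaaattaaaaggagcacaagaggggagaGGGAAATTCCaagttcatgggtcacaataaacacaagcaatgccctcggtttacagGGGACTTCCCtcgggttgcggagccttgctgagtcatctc
H2-M2: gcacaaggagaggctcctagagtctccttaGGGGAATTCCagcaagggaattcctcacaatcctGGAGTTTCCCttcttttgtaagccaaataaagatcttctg
Ccl20: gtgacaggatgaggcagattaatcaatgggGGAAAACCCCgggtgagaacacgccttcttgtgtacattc
Ccrl2: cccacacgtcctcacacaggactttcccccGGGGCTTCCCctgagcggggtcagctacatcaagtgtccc
The match begins 44 bases before the start of Il6, 80 before that of Ccl20 and 56 before that of Ccrl2. Cxcl10 has a match at 159 and another at 103 bases before its start, and H2-M2 has matches at 180 and 146.

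The table held promoters for 20 of the 30 genes that rose most, and 5 of these (25%) had the consensus, against none of 20 among the 30 genes that fell most. The AP-1 motif and the interferon-stimulated response element core described next were each found in 5 of the same 20 promoters too, against 1 and 2 of 20 for the decreases. Among all genes that rose at least 2-fold, 36 of 285 with a promoter (12.6%) had it. It was found in 24 of 361 genes (6.65%) that fell at least 2-fold, in 788 of 15613 tested genes (5.05%) and in 4.46% of the 27025 genes of the whole table. The AP-1 motif TGANTCA was present in 12.3% of the genes that rose at least 2-fold, 5.54% of those that fell and 7.12% of tested genes. The core of the interferon-stimulated response element, GAAANNGAA, was present in 14.7%, 8.31% and 7.99% of these genes. The cyclic AMP response element TGACGTCA was present in 4.56%, 0.554% and 2.33%, and TATAAA in 13%, 8.03% and 12.5%. No motif holds another within it. These are shares of letters in a fixed window, given as a description, and a match is no evidence of binding.

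MicroRNA genes are shown with their sequences because 6 of the 8 that rose form pairs that share a seed. Of 32 microRNA genes measured, 8 rose and none fell, with a median change of 0.13. The probe sets measure RNA of the microRNA gene and not the mature microRNA. The 8 genes give 5 seeds (bases 2 to 8, in capitals), those of miR-155-5p and miR-20a-5p being found in 1 each, and the mature strand usually loaded into the silencing complex is shown for each, from RefSeq.
miR-155-5p: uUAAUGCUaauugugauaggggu
miR-221-3p: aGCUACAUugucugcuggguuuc
miR-222-3p: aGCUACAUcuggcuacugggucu
miR-146a-5p: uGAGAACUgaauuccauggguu
miR-146b-5p: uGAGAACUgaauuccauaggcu
miR-19a-3p: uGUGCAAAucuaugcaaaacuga
miR-19b-3p: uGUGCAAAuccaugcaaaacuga
miR-20a-5p: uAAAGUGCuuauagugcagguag
On GRCm38.p6, miR-155-5p lies at chr16:84714143-84714165, and miR-221-3p and miR-222-3p lie close together at chrX:19146307-19146329 and chrX:19146901-19146923. The sequences of miR-19a-3p, miR-20a-5p and miR-19b-3p lie at chr14:115044048-115044070, chr14:115044183-115044205 and chr14:115044358-115044380, and those of miR-146a-5p and miR-146b-5p at chr11:43374435-43374456 and chr19:46342790-46342811.

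Mir155, whose product promotes inflammatory activation of macrophages, stood at 3.52, 3.61 and 3.21 in the mock arrays and at 7.61, 7.61 and 7.50 in the LPS arrays, a change of 4.12 ± 0.13 (SE, adjusted p = 9.41e-12). Mir221 went from 3.62, 4.01 and 3.94 to 7.36, 7.21 and 7.57, a change of 3.53 ± 0.26 (adjusted p = 1.72e-07). Its neighbour Mir222, with the same seed, went from 3.69, 3.73 and 4.06 to 7.14, 7.35 and 7.20, a change of 3.40 ± 0.19 (adjusted p = 6.96e-09). All LPS arrays of these genes lay more than 3 log2 units above all mock arrays, and the mock levels were close to background.
Mir146, which gives miR-146a, a negative regulator of Toll-like receptor signalling, stood at 2.58, 2.75 and 2.60 in mock arrays, under background, and at 4.51, 4.30 and 4.77 after LPS (1.88 ± 0.32, adjusted p = 0.000604). Mir146b on another chromosome, with the same seed, went from 3.86, 4.53 and 4.38 to 5.75, 5.41 and 5.42 (1.27 ± 0.16, adjusted p = 4.41e-05). For the members of the Mir17 cluster, the LPS arrays lay closer to the mock arrays. Mir19b-1 rose by 0.87 ± 0.16 (adjusted p = 0.00106), while its cluster neighbours Mir20a and Mir19a rose by 0.97 and 0.73. For Mir17 and Mir18 of that cluster the values were 0.38 and 0.68, which did not pass (adjusted p = 0.107 and 0.167). In BMM, Mir155 went from 5.23, 5.20 and 5.53 to 9.59, 9.65 and 9.65, and the difference from MPI-2 did not pass (-0.19 ± 0.19, adjusted p = 0.66). The differences were above 0 for Mir221 (1.36 ± 0.37, adjusted p = 0.0215) and Mir222 (1.64 ± 0.27, adjusted p = 0.000521), both of which were already well above background in BMM mock arrays.

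**Figure D2:**
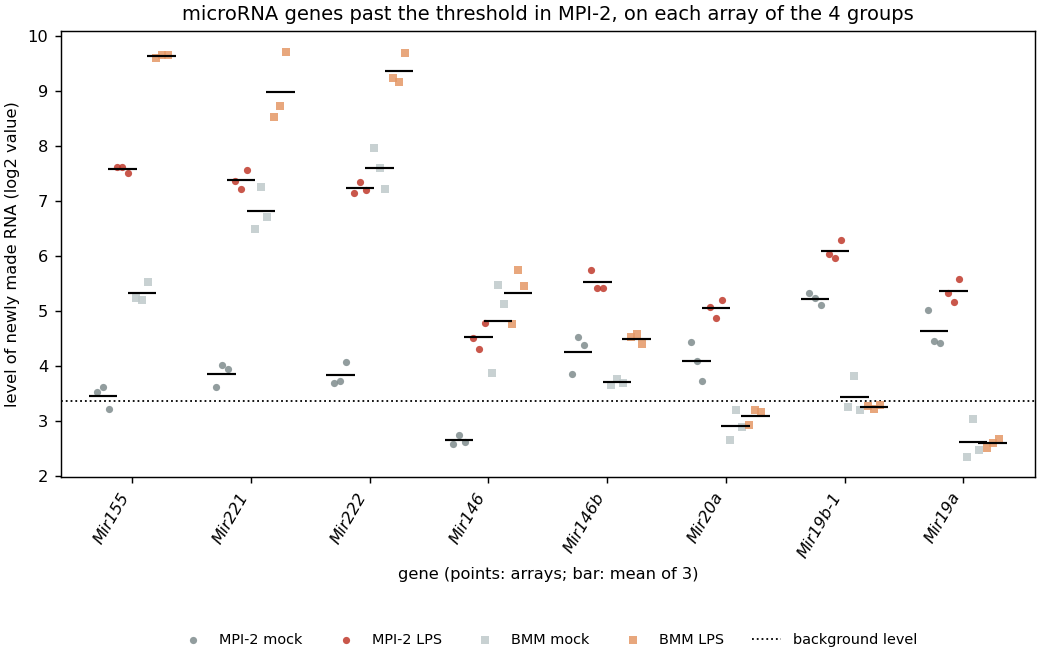
Level of newly made RNA (log2 value, vertical axis) of the 8 microRNA genes past the threshold in MPI-2, with 1 point per array, a bar at the mean of 3 arrays and the background level dotted. In MPI-2, the LPS arrays (red circles) lie above the mock arrays (dark grey circles) for each gene, and for Mir155 the BMM arrays (squares) rise by a similar amount from a higher mock level.

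Cytokines, the secreted messengers of the response, rose or did not pass. Of 31 measured members 16 rose and none fell, with a median change of 0.59, and 12 were under background in both groups. Il6, which drives the acute-phase response, stood at 3.63, 4.33 and 3.66 in mock and 10.44, 10.64 and 10.92 in LPS arrays, a change of 6.79 ± 0.24 or 111-fold (adjusted p = 2.78e-11). Il12b, the p40 subunit shared by interleukins 12 and 23, stood at 2.61, 2.66 and 2.63 and rose to 8.29, 8.03 and 8.22 (5.55 ± 0.13, adjusted p = 4.13e-13). Il23a, the other subunit of interleukin 23, went from 3.13, 3.10 and 2.82 to 7.43, 7.88 and 7.60 (4.62 ± 0.21). Both genes of interleukin 23 thus began under background on every mock array and ended above it on every LPS array, while Il12a, the partner of p40 in interleukin 12, had means under background in both groups (0.38, adjusted p = 0.174).
Il1f6, which encodes interleukin 36 alpha, went from 3.94, 3.57 and 4.03 to 9.38, 9.64 and 9.63 (5.70 ± 0.18, adjusted p = 9.41e-12). Csf3, the granulocyte growth factor G-CSF, went from 2.98, 2.94 and 2.97 to 7.27, 7.50 and 7.52 (4.47 ± 0.11, adjusted p = 4.83e-13). These genes were close to or under background without LPS, whereas the interleukin 1 genes were not.
Il1b stood at 9.86, 10.17 and 10.22 in mock arrays and 11.83, 11.66 and 12.01 in LPS arrays (1.75 ± 0.17, adjusted p = 3.42e-06). Il1rn, the antagonist of the interleukin 1 receptor, went from 9.27, 9.13 and 9.30 to 10.96, 11.06 and 11.12 (1.81 ± 0.13). Il1a went from 10.58, 10.79 and 10.91 to 11.79, 11.75 and 12.10 (1.12 ± 0.29, adjusted p = 0.013). It no longer passed without mock replicate 1 or without LPS replicate 3, where the change was 1.03 and 1.01. Its SE uses the shared spread, and its SD was 0.799 in BMM mock arrays, against 0.17 and 0.191 in MPI-2 mock and LPS arrays. Osm and Lif, of the interleukin 6 family, rose by 1.77 ± 0.23 and 1.37 ± 0.17. Il10, the main anti-inflammatory cytokine of macrophages, stood at 2.41, 2.47 and 2.19 in mock and 2.42, 2.37 and 2.68 in LPS arrays, under background on every array. Ifnb1 (interferon beta) was also under background on every array, at 2.56, 2.35 and 2.78 in mock and 2.79, 2.74 and 2.58 in LPS arrays.

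Of 15 tumour necrosis factor (TNF) family ligands 3 rose and none fell, and 9 were under background. Tnfsf15, a co-stimulator of T cells, went from 5.26, 5.53 and 5.21 to 10.11, 10.11 and 10.07 (4.76 ± 0.12, adjusted p = 9.20e-13). Tnfsf9, the 4-1BB ligand, went from 3.25, 3.39 and 3.16 to 5.94, 5.87 and 6.21 (2.74 ± 0.19). Tnf itself was already high at 9.83, 9.88 and 9.79 in mock arrays and reached 11.95, 11.90 and 12.08 (2.14 ± 0.14, adjusted p = 6.21e-08). The LPS arrays of Tnf lay near the top of the measured range, which ended at 12.82.

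Of 30 chemokines, which attract leukocytes, 13 rose and none fell, with a median of 0.34. Ccl4, a macrophage inflammatory protein, stood at 4.79, 4.46 and 4.45 and rose to 9.48, 9.59 and 9.62 (4.998 ± 0.20, adjusted p = 1.29e-10). Cxcl10, which attracts activated T cells, went from 7.22, 6.96 and 7.24 to 12.07, 12.05 and 12.05 (4.92 ± 0.17, adjusted p = 2.48e-11). Ccl20, the ligand of CCR6, went from 3.50, 3.45 and 3.56 to 6.72, 6.75 and 7.32 (3.43 ± 0.19). LPS replicate 3 was the highest array for Ccl20, and all LPS arrays lay above all mock arrays for these genes.
The CCR4 ligands Ccl22 and Ccl17 rose by 3.10 ± 0.14 and 2.08 ± 0.15. Ccl5 went from 5.07, 5.06 and 5.16 to 7.77, 7.85 and 7.76 (2.70 ± 0.16, adjusted p = 1.68e-08). The neutrophil attractants Cxcl2 and Cxcl3 rose by 2.14 ± 0.13 and 2.65 ± 0.17, while Cxcl1 of that family stood at 3.02, 3.05 and 3.35 in mock and 3.59, 3.58 and 3.23 in LPS arrays, which overlap (0.32 ± 0.16, adjusted p = 0.253).

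Of 26 growth factors 10 rose and 1 fell (median 0.24). Ereg, which encodes epiregulin, a ligand of the epidermal growth factor receptor, stood at 4.06, 3.97 and 4.10 in mock and 8.05, 8.0 and 8.38 in LPS arrays (4.10 ± 0.13, adjusted p = 9.41e-12). Edn1, the vasoconstrictor endothelin 1, went from 2.98, 2.86 and 3.49 to 7.26, 7.38 and 7.20 (4.17 ± 0.30, adjusted p = 1.15e-07). Pdgfb, a mitogen of mesenchymal cells, went from 6.59, 6.34 and 6.39 to 9.25, 9.26 and 9.29 (2.82 ± 0.21, adjusted p = 1.84e-07). The LPS arrays of Pdgfb agree within 0.1 log2 units. Inhba, the activin A subunit, rose by 1.44 ± 0.22 from a high mock level (10.46, 10.79 and 10.84), and Fst, which encodes follistatin, the inhibitor that binds activin, rose by 2.02 ± 0.17. Vegfa was the member that fell (-0.74 ± 0.17, adjusted p = 0.0078). Penk, the precursor of enkephalin peptides, belonged to no list and went from 4.76, 4.99 and 4.99 to 9.15, 9.34 and 9.33 (4.36 ± 0.24, adjusted p = 6.51e-09).

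**Figure D3:**
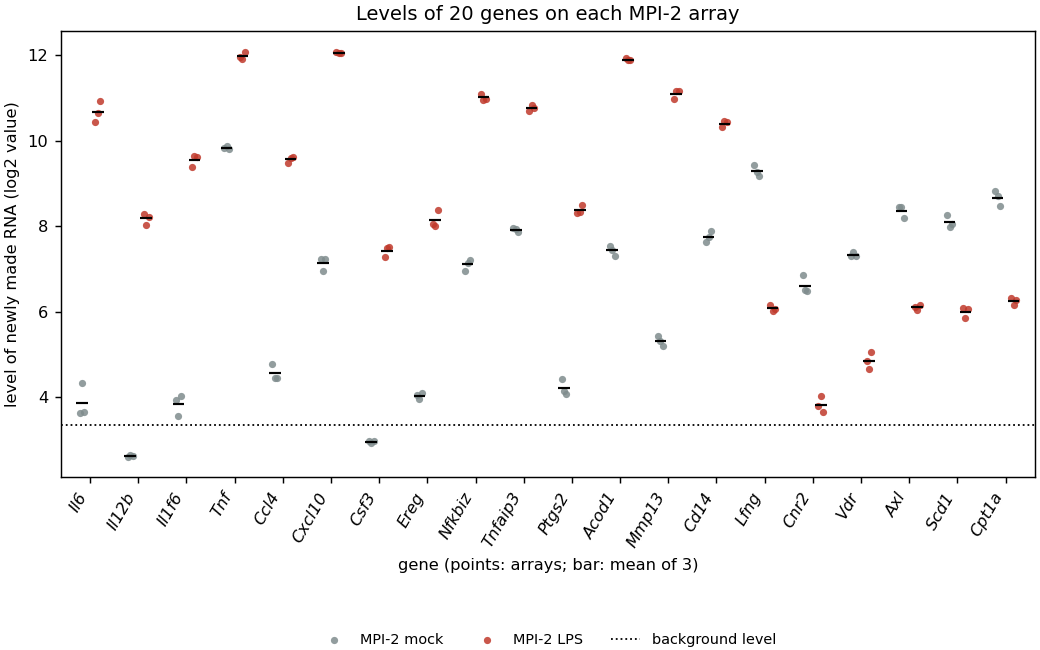
Level of newly made RNA (log2 value, vertical axis) of 20 genes on each MPI-2 array, grey for mock and red for LPS, with a bar at the mean of 3 arrays and the background level dotted. The first 14 genes rose and the last 6 fell, and the arrays of the groups do not overlap for any of them.

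Receptors for cytokines and chemokines moved in both directions, with 7 of 51 up and 9 down. The count up was 14 with the MPI-2 arrays fitted alone and 14 with array weights. Ccrl2, a chemerin-binding receptor, stood at 5.24, 5.30 and 5.71 in mock and 8.57, 8.74 and 8.69 in LPS arrays (3.25 ± 0.14, adjusted p = 3.44e-10). Fas, the death receptor, rose by 1.87 ± 0.13, and Il7r, the interleukin 7 receptor, by 1.62 ± 0.18. Il6ra, the binding subunit for interleukin 6, went the other way to its ligand, from 7.18, 7.09 and 6.996 to 5.58, 5.37 and 5.34 (-1.66 ± 0.21, adjusted p = 3.88e-05). The TNF receptors differed in direction: Tnfrsf1b (TNFR2) rose by 1.14 ± 0.16, while Tnfrsf1a (TNFR1) fell, with a change of -0.86 ± 0.20. The chemokine receptors Cxcr4 and Cxcr2 fell (-1.14 ± 0.20 and -1.37 ± 0.15), the latter to under background. The receptor chains for GM-CSF, in which the line is grown, did not pass, with values of -0.14 ± 0.14 for Csf2rb (adjusted p = 0.672) and, for Csf2ra, 0.40 ± 0.23 (adjusted p = 0.343).

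Among 21 pattern-recognition receptors and LPS co-receptors 5 rose and 3 fell. The count down was 5 with the MPI-2 arrays fitted alone. Cd14 stood at 7.63, 7.76 and 7.89 in mock and 10.31, 10.45 and 10.44 in LPS arrays (2.64 ± 0.13, adjusted p = 1.83e-09). Tlr13, which senses bacterial ribosomal RNA, went from 6.28, 6.73 and 6.40 to 8.54, 8.72 and 8.65 (2.16 ± 0.22, adjusted p = 6.07e-06). Nod2, a cytosolic sensor of bacterial cell wall, rose by 1.55 ± 0.12, and Tlr2, for bacterial lipoproteins, by 0.65 ± 0.13. Tlr6, a partner of Tlr2, fell from 4.72, 4.70 and 4.74 to 3.79, 3.78 and 3.89 (-0.89 ± 0.11, adjusted p = 3.02e-05), and Tlr8 fell too (-0.86 ± 0.19). Tlr4 stood at 8.79, 9.18 and 8.94 in mock and 8.67, 8.59 and 8.84 in LPS arrays, which overlap (adjusted p = 0.484).

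Of 36 proteins that relay the signal 12 rose and 4 fell (median 0.23). Irak3, an inhibitor of the IRAK kinases, went from 8.02, 7.96 and 7.93 to 9.68, 9.78 and 9.71 (1.76 ± 0.15, adjusted p = 6.23e-07). The adaptors Traf1 and Traf5 rose by 2.43 ± 0.12 and 2.14 ± 0.17, and the kinases Map3k8 and Ikbke by 1.16 ± 0.11 and 1.29 ± 0.13. Ticam2, the bridging adaptor of the TRIF arm, fell (-0.62 ± 0.13, adjusted p = 0.00248), as did Tab1 (-0.71 ± 0.15) and the necroptosis kinase Ripk3 (-0.87 ± 0.16). Myd88, the shared adaptor, did not pass (0.13 ± 0.15, adjusted p = 0.736).

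NF-kB subunits and inhibitors had the largest share of members up among the 45 lists, 12 of 19 with none down and a median of 0.89. Nfkbiz, a nuclear co-factor needed for Il6 and Il12b, stood at 6.96, 7.14 and 7.22 in mock and 11.09, 10.96 and 10.98 in LPS arrays (3.90 ± 0.16, adjusted p = 1.44e-10). Tnfaip3 (A20), the deubiquitinase that ends the signal, went from 7.95, 7.93 and 7.86 to 10.69, 10.84 and 10.75 (2.85 ± 0.12, adjusted p = 3.49e-10). Its binding partner Tnip3 went from 7.59, 7.83 and 7.61 to 9.65, 9.76 and 9.87 (2.08 ± 0.15). The cytoplasmic inhibitor Nfkbia rose by 1.42 ± 0.19, the nuclear inhibitor Nfkbid by 1.64 ± 0.21 and the subunit Rel by 1.30 ± 0.16. Of the MAP kinase phosphatases and Sprouty proteins, which restrain MAP kinase signalling, 7 of 17 rose and 2 fell (median 0.45). The count up was 11 with the MPI-2 arrays fitted alone. Dusp16 and Dusp8, phosphatases of JNK, rose by 1.91 ± 0.13 and 1.52 ± 0.18, whereas Dusp7, a phosphatase of ERK, fell from 8.54, 8.34 and 8.24 to 6.72, 6.67 and 6.55 (-1.73 ± 0.17, adjusted p = 3.87e-06).

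Immediate early genes, which respond within minutes to many stimuli, split, with 12 of 39 up and 9 down. The count up was 7 without mock replicate 1, 6 without LPS replicate 2 or 3, and 16 with the MPI-2 arrays fitted alone. Ier3, a survival factor, went from 5.56, 5.35 and 5.38 to 7.75, 7.84 and 7.74 (2.35 ± 0.18, adjusted p = 3.40e-07), and Egr1 from 6.55, 6.78 and 6.85 to 8.31, 8.77 and 8.62 (1.84 ± 0.19, adjusted p = 6.24e-06). Klf10 fell from 9.57, 9.49 and 9.56 to 7.20, 7.40 and 7.43 (-2.20 ± 0.17, adjusted p = 2.55e-07), as did Id1, an inhibitor of helix-loop-helix factors (-2.08 ± 0.16), and Klf4 (-1.77 ± 0.23). Fosb, a partner of Jun in AP-1, fell (-1.17 ± 0.17), while Jun did not pass (-0.31 ± 0.14, adjusted p = 0.176).
Of 42 transcription factors of the macrophage lineage 12 fell and 6 rose (median -0.22). Vdr, the vitamin D receptor, fell from 7.31, 7.40 and 7.30 to 4.84, 4.66 and 5.07 (-2.48 ± 0.14, adjusted p = 9.34e-09), and its partner Rxra from 7.64, 7.60 and 7.18 to 6.36, 5.96 and 5.85 (-1.42 ± 0.17, adjusted p = 2.32e-05). Pparg, the regulator of alveolar macrophage identity, fell from 10.40, 10.36 and 10.29 to 9.70, 9.60 and 9.61 (-0.71 ± 0.14, adjusted p = 0.00234). Cebpa and the lysosome regulator Tfeb fell as well (-0.91 ± 0.18 and -1.30 ± 0.18). Irf4 rose from 6.95, 6.72 and 6.65 to 8.46, 8.35 and 8.65 (1.71 ± 0.16, adjusted p = 1.66e-06). Spi1 (PU.1), the master factor of the lineage, did not pass (-0.45 ± 0.18, adjusted p = 0.127).

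Factors that destroy cytokine mRNA were divided, with 4 of 19 up and 4 down. The RNases Zc3h12c and Zc3h12a (Regnase-1) rose, the first from 9.17, 9.14 and 9.44 to 11.20, 11.31 and 11.36 (2.04 ± 0.16) and the second by 1.64 ± 0.15. Zfp36l2, which binds AU-rich elements, fell from 10.69, 10.77 and 10.64 to 9.62, 9.47 and 9.52 (-1.17 ± 0.25, adjusted p = 0.00377). Among feedback genes of cytokine signalling, Socs3 rose by 1.42 ± 0.23 and Socs2 fell (-1.09 ± 0.16).

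Interferon-induced genes rose in part only, with 13 of 53 up, 11 down and a median of -0.15. The count down fell to 5 without mock replicate 1, mock replicate 2 or LPS replicate 2, and to 7 without LPS replicate 1 or 3. It was 18 with the MPI-2 arrays fitted alone. Ifi205, a cytosolic DNA sensor family gene, stood at 3.31, 3.89 and 3.37 in mock and 7.02, 6.80 and 7.44 in LPS arrays (3.57 ± 0.25, adjusted p = 9.65e-08). Ifih1 (MDA5), a sensor of viral RNA, went from 4.94, 4.97 and 4.93 to 7.52, 7.71 and 7.60 (2.66 ± 0.14, adjusted p = 5.48e-09). Ifit1, an inhibitor of viral translation, went from 3.81, 3.74 and 3.59 to 6.08, 5.84 and 5.97 (2.25 ± 0.12, adjusted p = 6.82e-09). Those levels were low before LPS, and mock replicate 2 was the highest mock array for Ifi205.
Samhd1, which depletes nucleotides that viruses need, fell from 8.39, 8.46 and 8.29 to 6.14, 6.003 and 6.46 (-2.18 ± 0.19, adjusted p = 1.19e-06), and Oas2 fell from 6.23, 6.63 and 6.57 to 5.69, 5.57 and 5.61 (-0.85 ± 0.13). Of 11 interferon-induced GTPases, which attack vacuoles of pathogens, 3 rose and 1 fell, and 6 had means under background in both groups. Gbp5 went from 3.20, 2.81 and 3.17 to 4.77, 4.73 and 4.63 (1.65 ± 0.14, adjusted p = 1.03e-06) and Irgm1 from 6.13, 6.33 and 6.11 to 5.31, 4.95 and 5.14 (-1.06 ± 0.14, adjusted p = 7.21e-05). Of 16 class I antigen-presentation genes 1 rose, Cd1d1 (0.86 ± 0.15), and none fell.

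**Figure D4:**
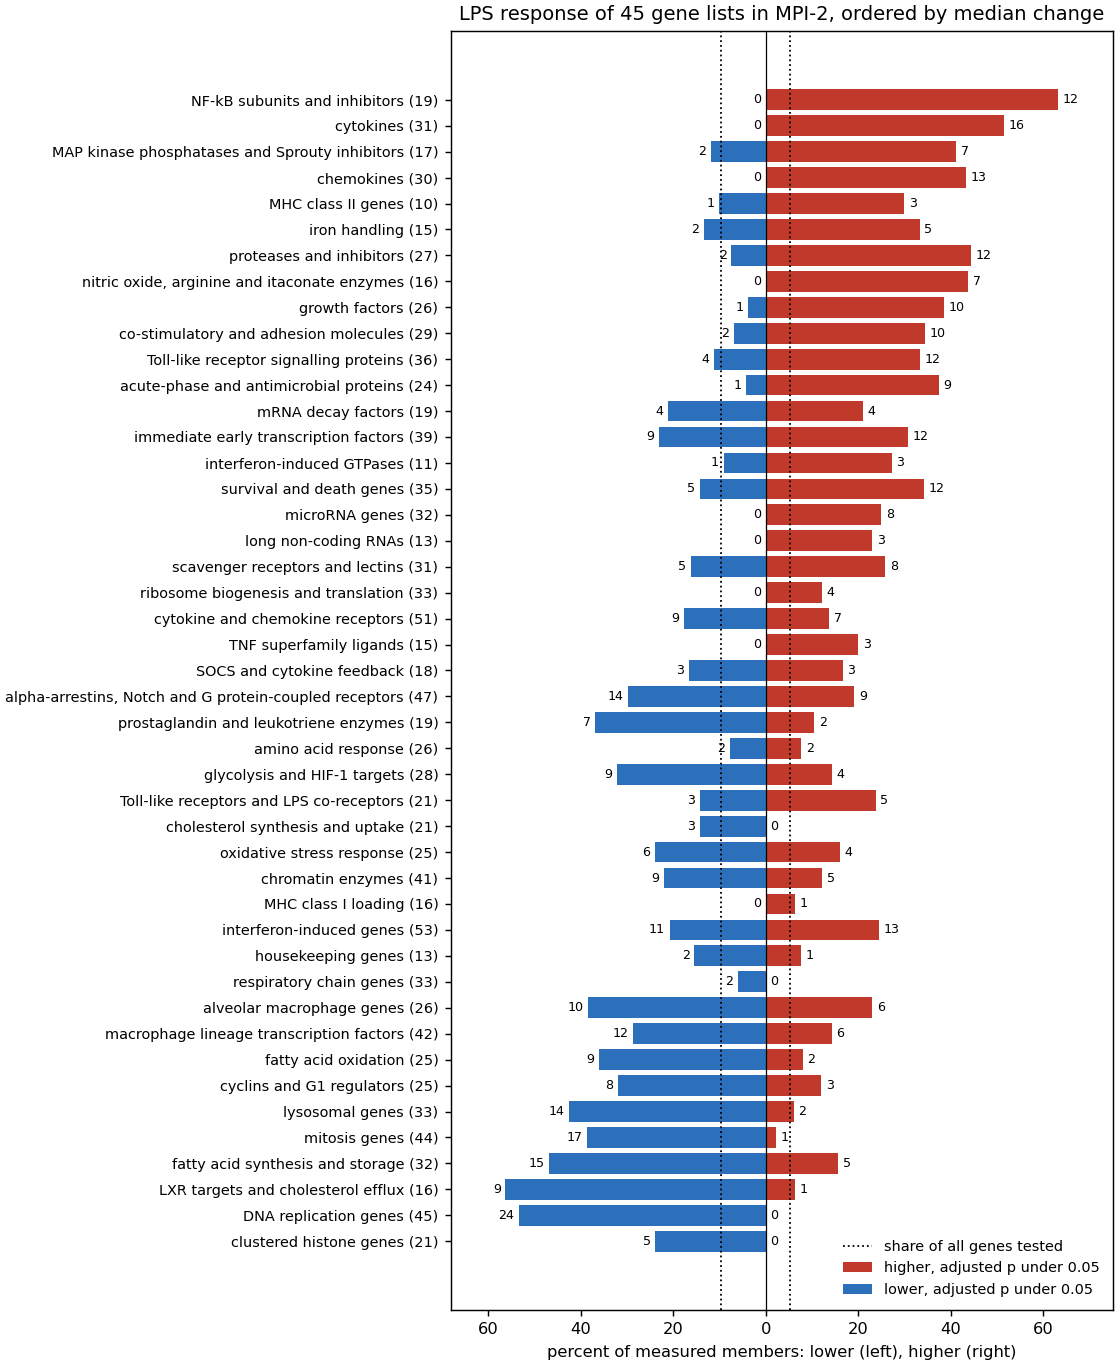
Share of the measured members of 45 gene lists (numbers in brackets) that rose (red, right) or fell (blue, left) after LPS in MPI-2, with the count beside each bar and lists ordered by their median change. Dotted lines mark the shares over all genes tested, 5.17% up and 9.58% down. NF-kB genes stand at the top with 12 of 19 up and clustered histone genes at the bottom with 5 of 21 down.

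Enzymes of lipid mediators moved apart. Of 19 prostaglandin and leukotriene enzymes 2 rose and 7 fell. Ptgs2 (cyclooxygenase 2), which makes the precursor of prostaglandins, stood at 4.44, 4.14 and 4.09 in mock and 8.32, 8.34 and 8.50 in LPS arrays (4.16 ± 0.13, adjusted p = 8.19e-12), and Ptges, which makes prostaglandin E2, rose by 1.09 ± 0.21. Ltc4s, the leukotriene C4 synthase, fell from 5.88, 6.17 and 5.97 to 4.30, 4.18 and 4.01 (-1.84 ± 0.14, adjusted p = 2.75e-07). Alox5 and Lta4h of the leukotriene pathway and Tbxas1, the thromboxane synthase, also fell (-0.94 ± 0.15, -0.89 ± 0.17 and -1.01 ± 0.16).
Of 16 enzymes of nitric oxide, arginine and itaconate 7 rose and none fell. Acod1, which makes itaconate, went from 7.54, 7.44 and 7.31 to 11.92, 11.87 and 11.87 (4.46 ± 0.13 or 22-fold, adjusted p = 2.57e-12). Cybb, the catalytic subunit of the phagocyte oxidase, rose by 1.28 ± 0.13. Nos2, the inducible nitric oxide synthase, lay under background in both groups at 2.73, 3.13 and 2.93 and 3.12, 3.20 and 2.80.

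Proteases and their inhibitors had 12 of 27 members up and 2 down. Mmp13, a collagenase, stood at 5.43, 5.31 and 5.19 in mock and 10.98, 11.15 and 11.15 in LPS arrays (5.78 ± 0.13 or 55.1-fold, adjusted p = 4.13e-13). Mmp12, the macrophage elastase, went from 8.48, 8.90 and 8.66 to 11.11, 11.16 and 11.14 (2.46 ± 0.19, adjusted p = 3.40e-07). Serpinb2, the plasminogen activator inhibitor 2, went from 2.88, 2.78 and 3.04 to 7.08, 7.75 and 7.70 (4.61 ± 0.19, adjusted p = 2.56e-10), and Plau, the urokinase that it inhibits, rose by 1.61 ± 0.20. Mmp8, known from neutrophils, rose by 1.53 ± 0.19. Adam17, the sheddase that releases TNF, rose by 1.24 ± 0.15. Mmp19 and the antigen-processing cathepsin Ctss fell (-1.70 ± 0.25 and -1.24 ± 0.12).
Acute-phase and antimicrobial genes had 9 of 24 members up and 1 down. Lcn2, which withholds iron from bacteria, went from 3.57, 3.21 and 3.31 to 8.73, 8.63 and 8.80 (5.36 ± 0.16, adjusted p = 5.67e-12). Hamp, which encodes hepcidin, the hormone that blocks iron export, went from 2.52, 2.23 and 2.68 to 4.83, 4.48 and 5.26 (2.38 ± 0.22, adjusted p = 2.04e-06). Saa3, Cfb and Orm1 rose by 2.85 ± 0.16, 2.34 ± 0.16 and 2.19 ± 0.19, and S100a8 by 1.77 ± 0.17. The iron importer Slc11a2 rose by 1.21 ± 0.18. Chil3, a chitinase-like protein of alternatively activated and alveolar macrophages, fell from 7.70, 7.91 and 7.66 to 5.76, 5.79 and 5.85 (-1.96 ± 0.14, adjusted p = 9.65e-08). S100a8 and Mmp8 are among the 3 neutrophil markers that rose, and the part of such cells in their values was not tested.

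Of 29 co-stimulatory and adhesion molecules 10 rose and 2 fell. Both decreases were lost without mock replicate 1 or 2 or LPS replicate 2, and 1 was lost without LPS replicate 1 or 3. With the MPI-2 arrays fitted alone 4 members fell. Cd69, an early activation marker of leukocytes, stood at 5.81, 5.69 and 5.60 in mock and 10.88, 10.87 and 11.07 in LPS arrays (5.24 ± 0.13, adjusted p = 4.83e-13). Itgax (CD11c) went from 5.84, 6.03 and 5.57 to 7.91, 7.88 and 7.92 (2.09 ± 0.17, adjusted p = 3.79e-07). Cd83 and Icosl rose by 1.70 ± 0.16 and 1.39 ± 0.18, and Icam1 by 0.99 ± 0.15. H2-M2, a non-classical class I gene, went from 3.97, 4.45 and 4.38 to 8.06, 8.04 and 8.11 (3.80 ± 0.15, adjusted p = 1.42e-10). Of 10 class II antigen-presentation genes 3 rose and 1 fell (median 0.34). The count up was 6 with the MPI-2 arrays fitted alone, and 1 with arrays paired by the replicate numbers in their descriptions. The member that fell was H2-DMa, which loads peptides on class II molecules. It went from 6.29, 6.05 and 5.98 to 4.90, 4.57 and 4.87 (-1.33 ± 0.17, adjusted p = 5.34e-05).
Of 31 scavenger receptors and lectins 8 rose and 5 fell. The C-type lectins Clec4a1, Clec5a and Clec4e, the last a sensor of mycobacterial glycolipid, rose by 1.96 ± 0.16, 1.72 ± 0.24 and 1.40 ± 0.20. Axl, a receptor for the uptake of dying cells, fell from 8.44, 8.44 and 8.19 to 6.12, 6.04 and 6.15 (-2.26 ± 0.14, adjusted p = 4.00e-08). Scarb1, the receptor of high-density lipoprotein, and its lysosomal relative Scarb2 fell (-1.38 ± 0.23 and -1.91 ± 0.13).
Of 26 genes of alveolar macrophages 10 fell and 6 rose (median -0.20). Krt19 fell from 6.32, 5.92 and 5.99 to 4.28, 4.29 and 4.14 (-1.84 ± 0.13, adjusted p = 1.10e-07), and Perp fell too (-1.30 ± 0.16), while Car4, a carbonic anhydrase, rose from 10.36, 10.30 and 10.32 to 11.67, 11.61 and 11.54 (1.28 ± 0.13, adjusted p = 6.36e-06).

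Of 32 genes of fatty acid synthesis and storage 15 fell and 5 rose (median -0.43). Scd1 and Scd2, desaturases that make oleate, fell from 8.26, 7.99 and 8.04 to 6.09, 5.85 and 6.07 (-2.10 ± 0.16, adjusted p = 3.19e-07) and from 11.65, 11.47 and 11.38 to 9.67, 9.42 and 9.54 (-1.96 ± 0.24). Dgat1, which completes triglycerides, fell from 7.42, 7.57 and 7.42 to 5.06, 5.42 and 5.21 (-2.24 ± 0.18, adjusted p = 3.41e-07), while Dgat2, another enzyme for that step, rose from 8.35, 8.52 and 8.41 to 9.48, 9.40 and 9.39 (0.999 ± 0.18, adjusted p = 0.00117). The lipin Lpin1 and the regulator Srebf1 fell (-2.04 ± 0.14 and -1.18 ± 0.20), and the fatty acid carrier Fabp4 and the acyl-CoA synthetase Acsl5 rose by 1.53 ± 0.17 and 1.29 ± 0.15.
Fatty acid oxidation had 9 of 25 members down and 2 up, and 1 of the increases was lost without mock replicate 2 or 3 or LPS replicate 1. Cpt1a, the gatekeeper of mitochondrial fatty acid entry, fell from 8.83, 8.71 and 8.47 to 6.33, 6.15 and 6.28 (-2.42 ± 0.16, adjusted p = 4.00e-08), and Hadh from 7.10, 6.96 and 6.74 to 4.93, 4.84 and 5.02 (-2.003 ± 0.18, adjusted p = 1.27e-06). Ppargc1b, a co-activator of mitochondrial genes, fell with a change of -1.63 ± 0.19. Among 16 targets of the sterol receptor LXR and efflux genes 9 fell (median -0.52). The cholesterol exporter Abcg1 fell from 11.07, 10.98 and 10.89 to 9.48, 9.28 and 9.32 (-1.62 ± 0.24, adjusted p = 0.000194). Its relative Abca1 was the 1 member called up (0.41 ± 0.12, adjusted p = 0.0249), a call that was lost when any 1 MPI-2 array was left out.

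Of 28 glycolysis and HIF-1 genes 9 fell and 4 rose, and 2 of the increases were lost without mock replicate 1 or 3 or any LPS replicate. Slc2a6, a hexose transporter, went from 5.78, 5.92 and 5.82 to 7.85, 7.80 and 7.74 (1.96 ± 0.17, adjusted p = 1.26e-06), and Egln3, a prolyl hydroxylase, rose by 1.56 ± 0.16. Amino acid transporters differed in direction: Slc7a11, the cystine importer, went from 9.31, 9.65 and 9.47 to 11.59, 11.77 and 11.75 (2.23 ± 0.19, adjusted p = 9.19e-07), and Slc7a5, the leucine transporter, fell from 9.35, 9.18 and 9.09 to 7.49, 7.56 and 7.33 (-1.74 ± 0.14, adjusted p = 3.19e-07). Sod2, the mitochondrial superoxide dismutase, rose by 1.32 ± 0.13, and Gclm, of glutathione synthesis, fell (-1.37 ± 0.18).
Lysosomal genes had 14 of 33 members down and 2 up (median -0.40). One of the increases was lost without mock replicate 2 or 3 or any LPS replicate, and 5 members rose with the MPI-2 arrays fitted alone. Ppt1, which removes palmitate from proteins, fell from 7.90, 8.04 and 7.79 to 5.65, 5.70 and 5.53 (-2.29 ± 0.19, adjusted p = 5.04e-07). Psap, the precursor of the saposins, fell from 10.20, 10.12 and 9.90 to 8.53, 8.39 and 8.48 (-1.61 ± 0.12, adjusted p = 1.26e-07). Smpd1, the acid sphingomyelinase, and Ctsa fell as well (-1.18 ± 0.17 and -1.18 ± 0.13).

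Survival and stress genes had 12 of 35 members up and 5 down, and the count down was 3 without any 1 LPS replicate. Gadd45a, a stress sensor, stood at 5.998, 5.57 and 5.88 in mock and 9.43, 9.51 and 9.37 in LPS arrays (3.62 ± 0.20, adjusted p = 6.51e-09). Its relative Gadd45b went from 5.81, 5.80 and 5.75 to 8.52, 8.61 and 8.54 (2.77 ± 0.20), while Gadd45g, the third of the family, fell from 6.71, 6.49 and 6.52 to 4.02, 4.38 and 3.73 (-2.53 ± 0.29, adjusted p = 1.52e-05). Plk2, a stress-induced kinase, went from 6.39, 6.29 and 6.52 to 9.48, 9.75 and 9.75 (3.26 ± 0.14, adjusted p = 2.59e-10). Cflar, which blocks caspase 8, rose by 1.94 ± 0.16, and the inflammasome genes Nlrp3 and Casp4 rose by 1.75 ± 0.14 and 1.72 ± 0.17.
Receptors that couple to G proteins, with arrestin-like and Notch genes, had 14 of 47 members down and 9 up. Lfng, which modifies Notch receptors, fell from 9.42, 9.27 and 9.16 to 6.16, 6.02 and 6.07 (-3.20 ± 0.20 or 9.2-fold lower, adjusted p = 3.53e-08). Cnr2, the cannabinoid receptor of immune cells, fell from 6.85, 6.51 and 6.48 to 3.79, 4.04 and 3.67 (-2.78 ± 0.18, adjusted p = 3.50e-08), and Gpr146 from 6.49, 6.49 and 6.37 to 3.77, 3.74 and 3.89 (-2.65 ± 0.13). Hcar2, the receptor for niacin and ketone bodies, went from 7.08, 7.005 and 7.15 to 9.49, 9.81 and 9.67 (2.58 ± 0.16, adjusted p = 2.94e-08), and the fatty acid receptor Gpr84 rose by 1.62 ± 0.19. Of 41 chromatin enzymes 9 fell and 5 rose. Kdm6b, an H3K27 demethylase, and Tet2 rose by 1.39 ± 0.19 and 1.41 ± 0.21, and Tet3 fell (-1.14 ± 0.19).

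Of 45 genes of DNA replication 24 fell and none rose, with a median of -0.55. E2f2, an activator of S-phase genes, fell from 7.12, 7.31 and 6.89 to 5.76, 5.13 and 5.40 (-1.68 ± 0.16, adjusted p = 3.09e-06), and Mcm2, of the replicative helicase, from 7.98, 7.97 and 7.93 to 6.98, 6.98 and 6.99 (-0.97 ± 0.15, adjusted p = 0.000258). Of 44 mitosis genes 17 fell and 1 rose. The count down was 7 without LPS replicate 2 and 9 without LPS replicate 3. It was 10 without mock replicate 2, 11 without mock replicate 1 or 3, and 29 with the MPI-2 arrays fitted alone. Cdc25b, a phosphatase that starts mitosis, fell from 7.19, 7.28 and 7.26 to 5.65, 5.67 and 5.40 (-1.67 ± 0.19, adjusted p = 1.93e-05), while the checkpoint gene Mad2l1 rose (0.71 ± 0.12). The proliferation marker Mki67 stood at 10.01, 9.92 and 9.76 in mock and 9.97, 9.85 and 9.95 in LPS arrays, which overlap.
The D-type cyclins Ccnd3 and Ccnd1 fell, the first from 7.47, 7.60 and 7.23 to 5.59, 5.32 and 5.51 (-1.96 ± 0.18, adjusted p = 2.04e-06) and the second with a change of -1.30 ± 0.23. The cyclin-dependent kinase inhibitor Cdkn1b (p27) rose from 8.18, 8.06 and 8.15 to 9.20, 8.99 and 9.17 (0.99 ± 0.12, adjusted p = 2.26e-05). Of 21 clustered histone genes, whose near-identical sequences can share probes, 5 fell and none rose. The count down was 3 without mock replicate 1 or LPS replicate 2, and 12 with the MPI-2 arrays fitted alone. Respiratory chain genes had 2 of 33 members down and none up, where 9.58% of all genes fell. That low count depended on the fit. With the MPI-2 arrays fitted alone 10 fell and 2 rose, and with array weights 9 fell and 2 rose. Among 13 long non-coding RNAs 3 rose: Il1bos, an antisense transcript of Il1b, went from 3.02, 2.90 and 3.02 to 8.31, 8.53 and 8.66 (5.52 ± 0.17, adjusted p = 5.67e-12), and AW112010 and Morrbid rose by 1.53 ± 0.13 and 0.94 ± 0.13. Whether the probe set of Il1bos reads some Il1b RNA was not tested.

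The response of MPI-2 was then set beside that of BMM, whose arrays are separate, with a test of the difference. In BMM, LPS raised 2053 genes (10.3%) and lowered 3061 (15.4%). The BMM arrays spread more, with a median gene SD of 0.176 in mock and 0.204 in LPS arrays. These counts and the SE of BMM changes rest on the spread shared with the MPI-2 arrays, whose median SD was smaller. The change was larger in MPI-2 than in BMM, on the signed scale, for 1412 genes (7.08%) and smaller for 1250 (6.27%). That balance turned with the scaling, to 1280 and 1402 with quantile normalization and 1200 and 1574 with cyclic loess. Of the 1031 genes that rose in MPI-2, 516 (50.0%) also rose in BMM, which are 25.1% of those that rose there, 69 fell in BMM and 446 did not pass. Of the 368 that rose at least 2-fold, 235 (63.9%) rose in BMM too. Of the 1910 that fell in MPI-2, 1036 (54.2%, or 33.8% of the BMM decreases) fell in BMM, 139 rose and 735 did not pass. Cell type, growth factor and medium differ together between MPI-2 and BMM and cannot be told apart, nor can any difference in array processing.

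Interferon-induced genes responded less in MPI-2 than in BMM. In BMM, 51 of 53 rose and none fell with a median of 2.13, against the 13 and 11 in MPI-2. Over all genes tested the difference passed below 0 for 6.27% and above 0 for 7.08%. Among these 53 it passed below 0 for 45 and above 0 for 1. That 1 was Cxcl10, which in BMM began at 10.66, 9.97 and 10.62 and rose by 2.13 ± 0.17, so that the difference was 2.79 ± 0.24 (adjusted p = 1.31e-06). The LPS arrays of Cxcl10 lay near the top of the measured range in both cell types (12.62, 12.70 and 12.31 in BMM), which bounds the change that can be read there. All 11 interferon-induced GTPases rose in BMM (median 3.45), and all 11 differences passed below 0. In MPI-2, 6 of the 11 had means under background in both groups. Gbp5 went from 4.63, 4.29 and 4.69 to 10.74, 10.80 and 11.02 in BMM, a difference of -4.66 ± 0.20 from MPI-2. Ifnb1, under background on all MPI-2 arrays, went from 3.06, 2.91 and 2.56 to 8.40, 8.80 and 9.69 in BMM (6.12 ± 0.24), with a difference of -5.97 ± 0.35 (adjusted p = 2.19e-08). Class I presentation genes rose for 10 of 16 in BMM, and the difference passed below 0 for 10.

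Cytokines and chemokines differed in both directions. The difference passed above 0 for 5 and below 0 for 14 of 31 cytokines, and for 5 and 9 of 30 chemokines. Over all genes tested these shares were 7.08% above 0 and 6.27% below. Il1f6, which rose by 5.70 in MPI-2, went from 3.04, 3.26 and 3.23 to 3.59, 3.65 and 4.34 in BMM (0.68 ± 0.18), a difference of 5.02 ± 0.26 (adjusted p = 7.14e-09). Csf3 stood at 3.04, 3.11 and 3.02 and 3.39, 3.40 and 3.39 in BMM, which gives a difference of 4.13 ± 0.16. Osm fell in BMM (-1.58 ± 0.23) and rose in MPI-2, a difference of 3.35 ± 0.33. Il10, under background on all MPI-2 arrays, stood at 6.02, 4.93 and 5.68 in BMM mock and 8.80, 9.46 and 9.68 in BMM LPS arrays. Its difference was -3.64 ± 0.35 (adjusted p = 3.49e-06). Il1a rose by 5.55 ± 0.29 in BMM from mock levels of 6.53, 5.35 and 5.005, far under the 10.58, 10.79 and 10.91 of MPI-2 mock arrays, and reached 10.97, 11.02 and 11.54 (difference -4.43 ± 0.40). The change of Il6 in BMM was 7.11 ± 0.24, and the difference did not pass (-0.32 ± 0.34, adjusted p = 0.691).

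Growth factors had more differences above 0 (9 of 26) than below (2), where 7.08% of all genes tested passed above 0 and 6.27% below. Ereg stayed at 3.63, 3.79 and 3.64 in BMM mock and 3.62, 3.51 and 3.86 in BMM LPS arrays, close to background, so the difference was 4.12 ± 0.19 (adjusted p = 2.10e-09). Pdgfb was as high in BMM mock arrays (9.82, 8.96 and 9.21) as in MPI-2 after LPS and did not pass there (-0.48 ± 0.21, adjusted p = 0.11), so the difference was 3.31 ± 0.30. Among NF-kB genes 6 differences were above 0 and 3 below, with Nfkbiz at 2.40 ± 0.22 (adjusted p = 2.17e-06) and Tnfaip3 at 0.61 ± 0.17. Cd14, at 10.29, 10.10 and 10.19 in BMM mock arrays, rose there by 0.53 ± 0.13, and the difference was 2.11 ± 0.18 (adjusted p = 1.31e-06). The difference passed above 0 for 14 and below 0 for 5 of 39 immediate early genes. Among stress genes it was 3.62 ± 0.28 for Gadd45a and 3.27 ± 0.19 for Plk2, neither of which passed in BMM (0.00 ± 0.20 and -0.01 ± 0.14). Of 33 lysosomal genes 29 fell in BMM, against 14 in MPI-2, and 19 differences lay above 0 and 4 below.

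**Figure D5:**
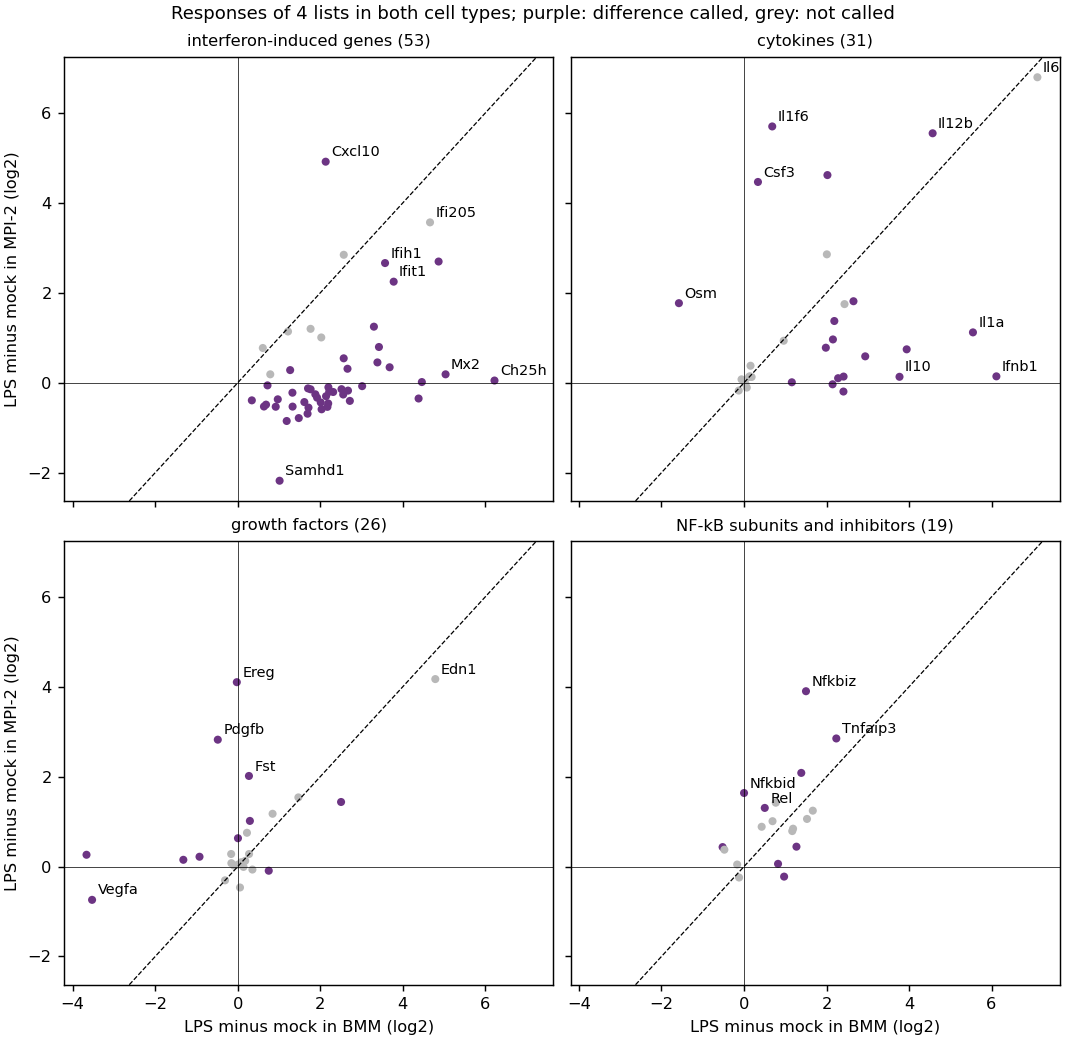
Change after LPS in MPI-2 (vertical axis, log2) against the change in BMM (horizontal axis, log2) for the members of 4 gene lists, with equal changes on the dashed line. Purple points passed the test of the difference and grey points did not. Most interferon-induced genes lie below the dashed line and Cxcl10 above it, while Ereg, Pdgfb, Il1f6 and Csf3 lie high above a BMM change near 0.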

How the data were processed

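The deposited table holds 1 log2 value per probe set and array, which the authors made with RMA and the package affy, per the submitters' processing notes. Versions, and whether all 12 arrays went through 1 run, are not stated in the sources used here. RMA sets the probe values of arrays run together to 1 distribution, so a shift shared by all genes is lost and changes are relative to other genes. The deposited values do not share 1 distribution. Their interquartile range was 3.06 to 3.21 in MPI-2 mock and 2.95 to 3.04 in MPI-2 LPS arrays. In BMM it was 2.78 to 2.88 in mock and 2.38 to 2.69 in LPS arrays. Labelled RNA (200 ng) had been amplified before hybridisation, per the labels' protocols. Of 34760 probe sets 21640 name 1 gene, 1321 several and 11799 are unnamed here. For 954 genes with several probe sets the one with the highest mean was used. Symbols were updated against RefSeq (GRCm38.p6), with 19855 matched.

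Means of the 4 groups were fitted to all 12 arrays in limma 3.58.1 (R 4.3.3), with 8 residual and 6.99 prior degrees of freedom, and the spread of a gene is shared by the groups. Precision is limited by the number of arrays. The fit was tested on simulated data. Lists (45, with 1229 of 1381 entries measured) and tests were chosen with earlier results of these data known, and lists are described by counts and medians without a test. Genes named are, among those past the threshold with no overlap of arrays, the 30 largest increases and decreases, up to 6 members of each list with the smallest adjusted p, and members that went against their list. To these were added list members past the threshold for the difference of responses, the 15 largest such differences each way, and a fixed set of macrophage genes whatever their values. Predicted genes, clone names, microRNA and small nucleolar RNA genes were left out of the largest changes and differences. So were olfactory and vomeronasal receptor genes and antigen receptor segments. Promoters shown are those of the 30 largest increases with the NF-kB consensus. Il12a, Spi1, Mir17, Mir19a, Mir20a, Ly6g, Mpo and Ltf were added outside this rule after their values were seen. Alternatives were other normalizations, filters, variance settings, blocks and leaving out each array.

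Replicate numbers in titles and descriptions disagree for MPI-2, and same-numbered arrays did not deviate together (r of 0.035, -0.183 and -0.141 by title, and -0.029 and 0.146 for the pairs by description), so no block was used.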

Additional observations from a re-analysis of the deposited data

Results flagged for a closer look

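The responses of MPI-2 and BMM differed, by limma's test of the difference itself (adjusted p under 0.05), for the following 30 genes, which had the 15 largest differences each way among genes that changed in MPI-2. Each value is the log2 change in MPI-2 minus that in BMM. Differences above 0 were 5.17 for Il1bos, 5.02 for Il1f6, 4.13 for Csf3, 4.12 for Ereg, 3.73 for Nr4a1, 3.62 for Gadd45a, 3.53 for Lpar6, 3.39 for Ly6a2, 3.35 for Osm, 3.31 for Pdgfb, 3.29 for Ccl20, 3.27 for Plk2, 3.24 for Penk, 3.19 for Btg2 and 3.15 for Prg4. Of these, Lpar6 fell in both cell types, less in MPI-2 (-0.63) than in BMM (-4.17), and its call in MPI-2 was lost without LPS replicate 2 (-0.55). Nr4a1 and Btg2 rose in MPI-2 (1.02 and 1.57) and fell in BMM (-2.71 and -1.62). The call of Nr4a1 in MPI-2 was lost without mock replicate 1 (0.80), LPS replicate 2 (0.99) or LPS replicate 3 (1.01).

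Differences below 0 were -4.66 for Gbp5, -4.43 for Il1a, -4.11 for AW112010, -4.10 for Fcgr4, -4.04 for Cxcl9, -3.71 for Gbp7, -3.50 for Naaa, -3.39 for Ccnd2, -3.30 for Plod3, -3.26 for Irgm1, -3.20 for Il27, -3.19 for Samhd1, -3.17 for Sp140, -3.12 for Oas1b and -3.09 for Axl. Fcgr4, an activating antibody receptor, fell in MPI-2 from 5.89, 5.89 and 5.85 to 4.01, 4.03 and 4.11 and rose in BMM from 6.62, 5.99 and 6.10 to 8.33, 8.45 and 8.75. Naaa, Plod3, Irgm1, Samhd1 and Axl likewise fell in MPI-2 and rose in BMM. Ccnd2 was high in MPI-2 mock arrays (10.77, 10.61 and 10.63) and low in those of BMM (4.37, 3.93 and 4.32). Its call in MPI-2 was lost without mock replicate 1 (-0.50) or LPS replicate 3 (-0.51). Calls in MPI-2 of 3 others were lost as well: Gbp7 without mock replicate 1 (0.49) or 3 (0.64) or LPS replicate 1 (0.55) or 3 (0.56), Sp140 without mock replicate 3 (0.83), and Oas1b without any 1 array other than mock replicate 3. The difference of responses kept its call for all 30 genes when any 1 BMM array was left out.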

How the results depend on the processing

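No gene or difference named in the text changed its direction while called, and no gene that passed in MPI-2 passed with the opposite sign under any alternative. The counts of genes that rose and fell in MPI-2 were 1854 and 3172 when the 6 MPI-2 arrays were fitted alone, 1940 and 3243 with array weights, and 368 and 455 at a minimum change of 2-fold, against 1031 and 1910. The differences above and below 0 numbered 756 and 742 at that minimum. The fit of MPI-2 alone leaves out the more variable BMM arrays. In that fit 3 growth factors, 2 microRNA genes, 2 class I genes, 1 chemokine and 1 gene of the nitric oxide list fell. In it 8 chromatin enzymes, 3 class I genes and 1 DNA replication gene rose. Leaving out 1 MPI-2 array gave 783 to 872 genes up and 1317 to 1655 down. Quantile normalization (1079 and 1641) and loess (1182 and 1823) lost 12 and 6 of the calls on named genes, and leaving out 1 MPI-2 array lost 42 to 52. Pairing by title number as a replicate block gave 1051 up and 1902 down, with 19 named calls lost. The replicate block by description number, which pairs other arrays and leaves some without a partner, gave 643 up and 1273 down in MPI-2 with 80 calls on named genes lost, and 821 differences above 0 and 896 below. The balance of differences (1412 above and 1250 below 0) also turned with quantile normalization (1280 and 1402) and loess (1200 and 1574). Signals near background limit small changes: the smallest called change was 0.346, and 98 of the genes that fell had an LPS mean under background.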
